A study of Mus musculus with 31 samples.

Results

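Cytosolic ribosomal proteins are the protein parts of the 80S ribosome that translates nuclear messenger RNAs. Their genes were taken by symbol as the protein-coding genes named Rpl or Rps plus a number, with Rpsa and Rplp0 to Rplp2, leaving out the Rps6k kinases, Rps27l and pseudogenes. The rule gave 85 genes of the 34865 identifiers in the bulk table and of the 55487 in the Smart-seq2 table, 52 of the large subunit and 32 of the small subunit. The remaining gene, Rps19bp1, matched the symbol rule but encodes a protein that binds Rps19 and is no subunit. Of 392 symbol matches, 290 were left out as pseudogenes by biotype, 6 by a pseudogene name and 10 as kinases.

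The data are mouse embryonic brain RNA in 4 groups. Bulk RNA-seq covered 3 libraries of dorsal and 3 of ventral diencephalon, the region of the forebrain that forms thalamus and hypothalamus, from wild-type embryos at embryonic stage E10.5. Smart-seq2, a full-length method for very small RNA inputs, covered 13 libraries labelled Axin2-/- and 12 labelled Axin2+/+, described as single cells from the medial cortex at E11.5. Both genotypes came from Emx1-CreERT2::MADM-11::Axin2LacZ embryos, in which a Cre enzyme under the cortical Emx1 promoter, active once tamoxifen is given, recombines the chromosome 11 pair and leaves null and wild-type cells of different colours side by side in 1 brain. Axin2 is a Wnt target that in turn dampens Wnt signalling. The wild-type cells therefore share the Cre, the MADM cassettes and the mosaic tissue with the null cells, and the labels name no embryo for any library.

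The bulk libraries matched their regions by marker genes, with 7 of 7 tested dorsal diencephalon genes higher and 8 of 8 ventral ones lower in dorsal (edgeR, adjusted p under 0.05). Both groups also held genes of other tissues. The 8 medial cortex genes looked at summed to 991 to 1098 CPM in dorsal and 84.1 to 99.1 CPM in ventral libraries. The 13 intestinal genes summed to 8.5 to 12.7 CPM in dorsal and 2175 to 8154 CPM in ventral libraries, and 10 exocrine pancreas genes to 2.87 to 4.48 CPM in dorsal and 642 to 3122 CPM in ventral. Dorsal library 3 stood apart from the other two in the genes described here, so results are given with and without it. Leaving it out was a choice made on these genes' own values, so calls and adjusted p without it are descriptions.

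Ribosomal proteins are made in matched amounts, since each ribosome needs a copy of nearly every one. Their messenger RNAs are short and abundant, and most begin with a C followed by a run of pyrimidines, the 5′ terminal oligopyrimidine (TOP) motif, through which mTOR controls their translation. In neural progenitors, ribosome production is known to accompany growth and division, and reduced dosage of ribosomal proteins is a classical trigger of cell competition in Drosophila, where such mutants are called Minutes.

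The windows around 6 of the transcription starts are given here because 4 of these genes, Rpl37, Rpl35, Rpl39 and Rps28, had the largest null-minus-wild-type differences described below, and Rpl4 and Rps3a1 the smallest. RefSeq held a promoter entry for 65 of the 85 genes (GRCm38.p6). Each line runs 5′ to 3′ on the gene's strand, from 30 bases before the annotated start to 30 bases from it on, and capitals mark a pyrimidine run at the start where there was one.
Rpl37: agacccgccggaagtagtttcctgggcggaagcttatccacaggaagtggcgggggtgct
Rpl35: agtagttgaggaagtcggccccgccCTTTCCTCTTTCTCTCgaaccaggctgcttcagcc
Rpl39: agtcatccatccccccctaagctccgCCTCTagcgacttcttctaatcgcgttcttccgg
Rps28: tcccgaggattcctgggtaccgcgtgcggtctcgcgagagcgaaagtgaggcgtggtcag
Rpl4: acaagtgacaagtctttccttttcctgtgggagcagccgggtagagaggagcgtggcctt
Rps3a1: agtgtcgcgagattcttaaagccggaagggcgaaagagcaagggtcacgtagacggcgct
These windows lie at chr15:5116583-5116642 (plus strand) for Rpl37, chr2:39005102-39005161 (minus) for Rpl35, chrX:37085193-37085252 (minus) for Rpl39, chr17:33824533-33824592 (minus) for Rps28, chr9:64173357-64173416 (plus) for Rpl4 and chr3:86142639-86142698 (minus) for Rps3a1. A run, counted as a C within 5 bases of the annotated start followed by at least 4 C or T, was present in Rpl35 and Rpl39 and not in the other 4. Over all 65 genes it was present in 43.1%, against 18.5% of all 27025 RefSeq promoters. RefSeq starts need not be the starts used in this tissue, so a missing run says nothing about the gene's TOP motif.

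In the region from 250 bases before to 50 bases after the start, searched on both strands, CCGGAAG, the core bound by ETS factors such as GABPA, was present in 36.9% of the ribosomal protein genes and in 9.12% of all promoters. GGGCGG, the GC box of Sp factors, was present in 60.0% and 35.9%. CTTTCC was present in 50.8% and 26.3%, and AAGATGG, the core bound by YY1, in 13.8% and 6.48%. Each of these letters was therefore more frequent in the ribosomal protein genes than over all promoters. A match is a match of letters and no measured binding.

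In bulk diencephalon, 83 of the 85 genes averaged 1 CPM or more (counts per 1000000 counts after scaling) and were tested. Rpl3l and Rpl39l, copies of Rpl3 and Rpl39 known from muscle and from testis, were not, with at most 5 counts in any library. Per kilobase of principal transcript, the level ranged among the tested genes from 2.33 CPM for Rpl10l to 1104 CPM for Rpl41, which encodes the smallest ribosomal protein. Rps29, Rpl13, Rpl37a and Rps14 followed at 806, 723, 604 and 604 CPM per kilobase. On the same scale Rpl12, Rpl5 and Rps20 were low for the family, at 14.4, 24.7 and 26.6 CPM per kilobase. Their annotated lengths were 1242, 2045 and 3706 nucleotides. Before division by length, Rps20 was at 68.2 to 120 CPM in dorsal libraries. Proteins made in equal numbers thus had listed mRNA levels that differed over more than 1 order of magnitude. Many of these genes have near-identical pseudogenes, and how shared reads were assigned is not given in the sources used here. The annotated length need not be that of the mRNA made here. Levels between genes are uncertain for these reasons.

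The comparison of dorsal with ventral diencephalon asks how the regions differ, and in it the family as a whole showed no difference that passed the test in common. Ribosomal protein genes took 1.42%, 1.46% and 2.98% of the counts in dorsal libraries 1, 2 and 3, against 1.95%, 1.83% and 1.98% in the 3 ventral libraries. Dorsal libraries 1 and 2 thus lay below all ventral libraries and dorsal library 3 above them. The dorsal mean was 1.95% ± 0.889 and the ventral mean 1.92% ± 0.0792 (SD, n = 3 each). Both subunits followed this order, the large subunit at 0.830% to 1.76% in dorsal and 1.07% to 1.17% in ventral libraries, and the small subunit at 0.588% to 1.21% and 0.757% to 0.803%. In bulk tissue, fewer cells with a high level and less RNA per cell cannot be told apart.

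**Figure D1:**
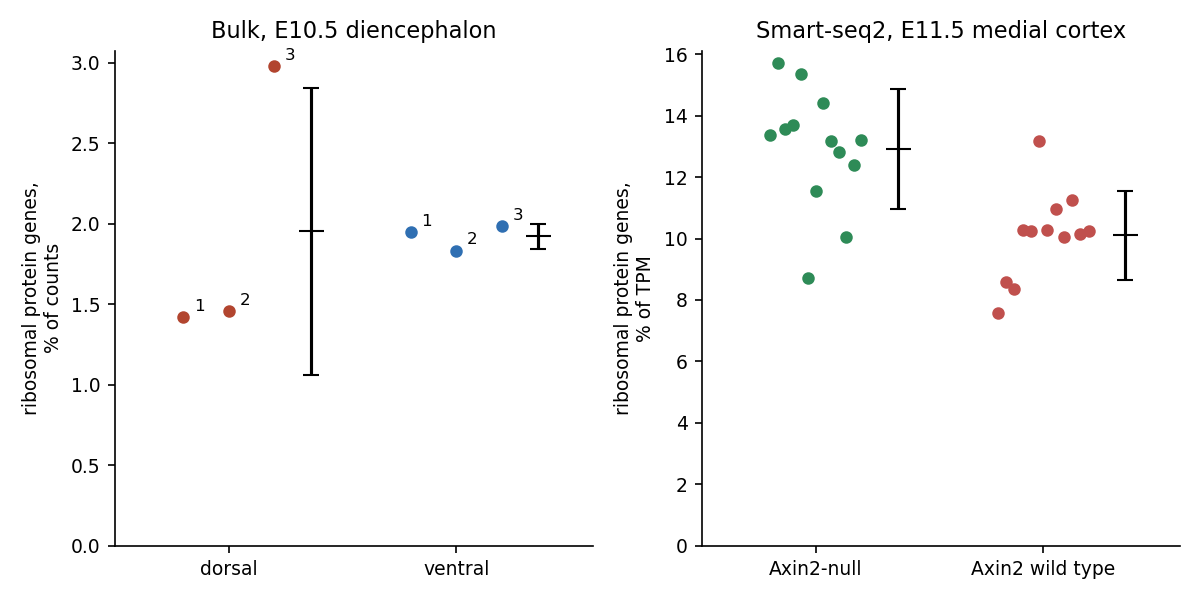
Share of each library taken by cytosolic ribosomal protein genes, in percent of counts in bulk (left, dorsal and ventral libraries with their numbers) and in percent of TPM in Smart-seq2 (right, Axin2-null and wild-type libraries). Points are libraries and bars are mean ± SD; dorsal library 3 stands at 2.98%, while the Smart-seq2 groups overlap between 8.70% and 13.2%.

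With all 6 libraries, no ribosomal protein gene passed an adjusted p of 0.05 as higher in dorsal, against a background of 7.14% of the 14701 genes tested, and 1 passed as lower, against 9.54% (edgeR quasi-likelihood test with Benjamini-Hochberg adjustment). At an unadjusted p under 0.05 there were 3 of 83, while 30.6% of all genes stood there. The median log2 fold change was -0.07 over the 83 genes and 0.01 over all genes, and 36 were above 0 and 47 below. The 3 dorsal and 3 ventral libraries did not overlap for 3 genes lower and 1 higher in dorsal, Rps3, Rpl34 and Rpl10l on the lower side and Rpl5 on the higher, against 20.0% and 19.0% of all genes.

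The gene that passed was Rpl10l (ENSMUSG00000060499, GRCm38 chromosome 12, 66283379 to 66284401, minus strand), a retrogene copy of Rpl10 known from the testis, where it replaces the X-linked parent. It had 0, 0 and 4 counts in the dorsal libraries, against 81, 162 and 24 in the ventral libraries. On the log2 scale the fold change was -5.94 (standard error 1.36, adjusted p 0.0213, edgeR). The fold rests on so few dorsal counts that its size depends on the fit. The gene was not past the threshold without dorsal library 1 or 2 (adjusted p 0.0775 and 0.0726) or without ventral library 1 or 2 (adjusted p 0.0587 and 0.0706, all edgeR), and with a minimum of 5 CPM it was not tested. Its ventral order, library 2 above library 1 above library 3, was also that of 13 intestinal marker genes, which took 0.449%, 0.79% and 0.22% of the counts in ventral libraries 1, 2 and 3 and at most 0.00127% in a dorsal library. All 13 of these markers, Defa2, Defa3 and Fabp2 among them, were lower in dorsal, and their part in the Rpl10l result was not tested. The order was not particular to intestinal genes. Exocrine pancreas genes and mitochondrially encoded genes had the same ventral order by share of counts, while the immediate-early and stress genes described below did not. Rpl10 itself, on chromosome X, was at 204, 223 and 255 CPM in dorsal and 255, 210 and 339 CPM in ventral libraries, with a log2 fold change of -0.24 and an adjusted p of 0.488 (edgeR). Rpl10 did not separate the regions.

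Rpl34 and Rpl5 came next by p. Rpl34, a large subunit protein, was at 67.4, 79.9 and 137 CPM in dorsal libraries, against 156, 146 and 148 CPM in ventral libraries. Every dorsal library lay below every ventral one, but dorsal library 3 came close, and the log2 fold change of -0.66 (standard error 0.27) had an adjusted p of 0.141 (edgeR). Rpl5, which carries the 5S rRNA into the large subunit and can bind Mdm2, was at 49.4, 51.1 and 78.6 CPM in dorsal libraries, against 40.9, 44.7 and 37.9 CPM in ventral libraries. It was the sole member whose dorsal libraries all lay above the ventral ones, with a log2 fold change of 0.53 (standard error 0.23) and an adjusted p of 0.158 (edgeR). Neither passed the threshold.

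Beside Rpl10l and Rpl34, the most negative values belonged to Rps21, at -0.77, Rps12, at -0.55, Rpl22l1, at -0.53, and Rps27, at -0.46. Rps21, a small protein of the 40S subunit, was at 44.6, 39.5 and 121 CPM in dorsal libraries and 121, 127 and 101 CPM in ventral libraries. Dorsal libraries 1 and 2 were far under the ventral ones and dorsal library 3 within their range, and the adjusted p was 0.251 (edgeR). High positive values were also those of Rpl13a, at 0.49, Rpsa, at 0.39, Rpl3, at 0.37, and Rpl10a, at 0.35. Rpl13a, known also for a role outside the ribosome in silencing inflammatory transcripts, was at 205, 218 and 660 CPM in dorsal and 274, 222 and 277 CPM in ventral libraries. Its positive value came from dorsal library 3, and without that library it was -0.28. Rpl13a, Rpsa and Rpl10a turned negative without dorsal library 3, whereas Rpl5 and Rpl3 stayed positive at 0.29 and 0.09.

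Dorsal library 3 was the highest of the 3 dorsal libraries for 83 of the 83 tested genes and the highest of all 6 libraries for 74. Relative to the mean of dorsal libraries 1 and 2, the median log2 ratio of dorsal library 3 was 1.09 over 82 ribosomal protein genes and -0.03 over 14384 genes with values. Its share of ribosomal protein counts was 2.07-fold the mean of the other two. The excess was uneven within the family. Rps15 stood at 3.55-fold and Rpl38, an RNA-binding protein of the large subunit known for its part in translating Hox mRNAs, at 3.42-fold. Rps29 stood at 3.11-fold, while Rpl7l1, a nucleolar relative of Rpl7, stood at 1.12-fold and Rpl10 at 1.19-fold. The same library stood apart in the counts at a gene outside the family as well. Counts at Lars2, the gene of the mitochondrial leucyl-tRNA synthetase, were at 24375 CPM in dorsal library 3. They were at 2686 and 1079 CPM in dorsal libraries 1 and 2 and 304 to 1426 CPM in ventral libraries. In Smart-seq2, Lars2 averaged 186 TPM in null and 251 TPM in wild type. Whether the bulk counts come from its mRNA was not tested.

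Without dorsal library 3, 48 of the 83 genes were lower in dorsal and none was higher, against a background of 12.4% lower and 9.68% higher of 14593 genes (edgeR, adjusted p under 0.05). At an unadjusted p under 0.05 there were 63, while 36.5% of all genes stood there. The median log2 fold change of the family was -0.51, that of all genes -0.01, and 80 of the 83 values were below 0. The 48 were made up of 27 of 50 large subunit genes, 20 of 32 small subunit genes and Rps19bp1. The 2 dorsal and 3 ventral libraries did not overlap for 72 genes lower in dorsal, against 29.3% of all genes, and for 1 higher, against 29.5%. Other measures moved with region as well. The 11 immediate-early and stress genes looked at, Fos, Jun and Egr1 among them, summed to 260 to 319 CPM in dorsal and 737 to 950 CPM in ventral libraries, and 5 of the 11 were lower in dorsal with all libraries and 5 without dorsal library 3. Mitochondrially encoded genes took 1.58%, 1.56% and 1.14% of the counts in dorsal libraries 1, 2 and 3, against 2.76%, 3.74% and 1.73% in the ventral libraries. The part of either in the result was not tested. The 48 calls rest on 2 dorsal libraries, which were the closest pair of that region. The library left out was the one with high values of these same genes. Its removal moves the family down in dorsal by design, so the calls are no independent support for a difference. Leaving out dorsal library 1, dorsal library 2, ventral library 1 or ventral library 2 instead gave no call in the family, against 9.04%, 9.93%, 9.87% and 10.3% of all genes in either direction, and leaving out ventral library 3 gave 1, Rpl10l, against 24.7%.

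**Figure D2:**
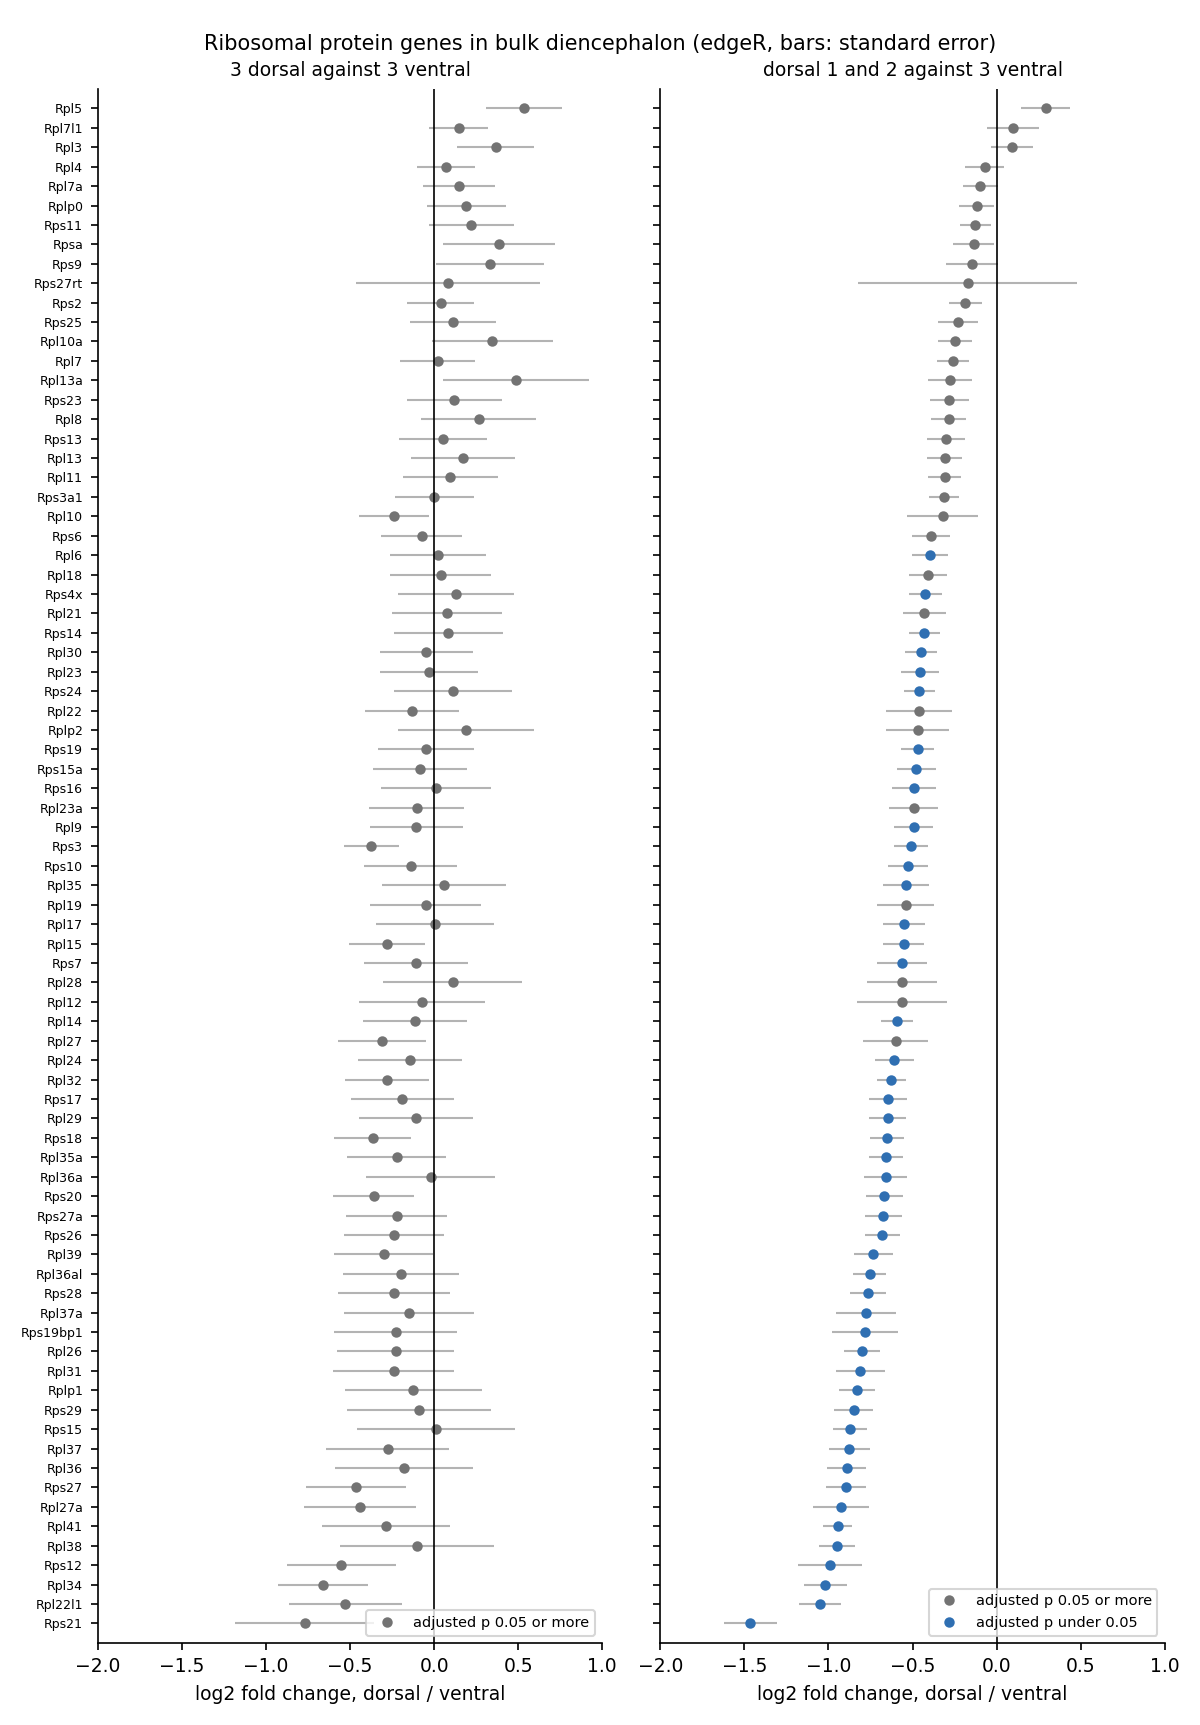
Log2 fold change of dorsal over ventral for 79 of the tested ribosomal protein genes, with all 6 libraries (left) and without dorsal library 3 (right); bars are standard errors and blue points have an adjusted p under 0.05 (edgeR). Rpl10l, at -5.94 with all libraries and -9.54 without dorsal library 3, lies outside the axis and is not drawn; the blue points lie below 0, with Rps21 lowest at -1.46.

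In that comparison the lowest adjusted p belonged to Rpl41, at 329 and 353 CPM in dorsal libraries 1 and 2, 943 CPM in dorsal library 3 and 651 to 669 CPM in ventral libraries. The tight ventral values stood well above the first 2 dorsal libraries and well under dorsal library 3. Its log2 fold change without dorsal library 3 was -0.95 (adjusted p 0.0023, edgeR). Rps21 had -1.46 (adjusted p 0.0036), Rpl22l1 -1.05 (adjusted p 0.0048) and Rpl34 -1.02 (adjusted p 0.0054), all by edgeR. Rpl22l1 is the paralogue of Rpl22 and is known to regulate splicing. Among genes that did not pass were Rplp0, at -0.12, and Rpsa, at -0.14, both with principal transcripts over 1000 nucleotides.

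Transcript length ordered these values. Over 82 genes, the length of the principal transcript and the log2 fold change without dorsal library 3 had a Spearman correlation of 0.58, and length and the ratio of dorsal library 3 to dorsal libraries 1 and 2 one of -0.35. Genes outside the family followed length too. Without dorsal library 3, 54.8% of the other genes under 500 nucleotides were lower in dorsal, as were 47.1% from 500 to 700, 35.4% from 700 to 1000, 17.6% from 1000 to 2000 and 6.63% from 2000 on. In the same classes of length, 9 of 11, 15 of 19, 13 of 28, 9 of 21 and 2 of 4 ribosomal protein genes were lower. Dorsal library 3 was likewise above dorsal libraries 1 and 2 by a median log2 ratio of 1.2 over other genes under 500 nucleotides and of 0.74 from 700 to 1000, and below them by -0.21 from 2000 on. For ribosomal protein genes the medians were 1.47 under 500 nucleotides and 1.09 from 700 to 1000. High values of short transcripts in dorsal library 3 were thus not confined to the family. In the longer classes the family stayed high where other genes did not. From 1000 to 2000 nucleotides its median was 1.11, against 0.30 for other genes. From 2000 on it was 0.82 over 4 ribosomal protein genes, against -0.21. The lengths were medians over each gene's annotated principal transcripts, which need not be the mRNAs made here. The classes were chosen with the values known, and the part of length in the result was not tested.

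**Figure D3:**
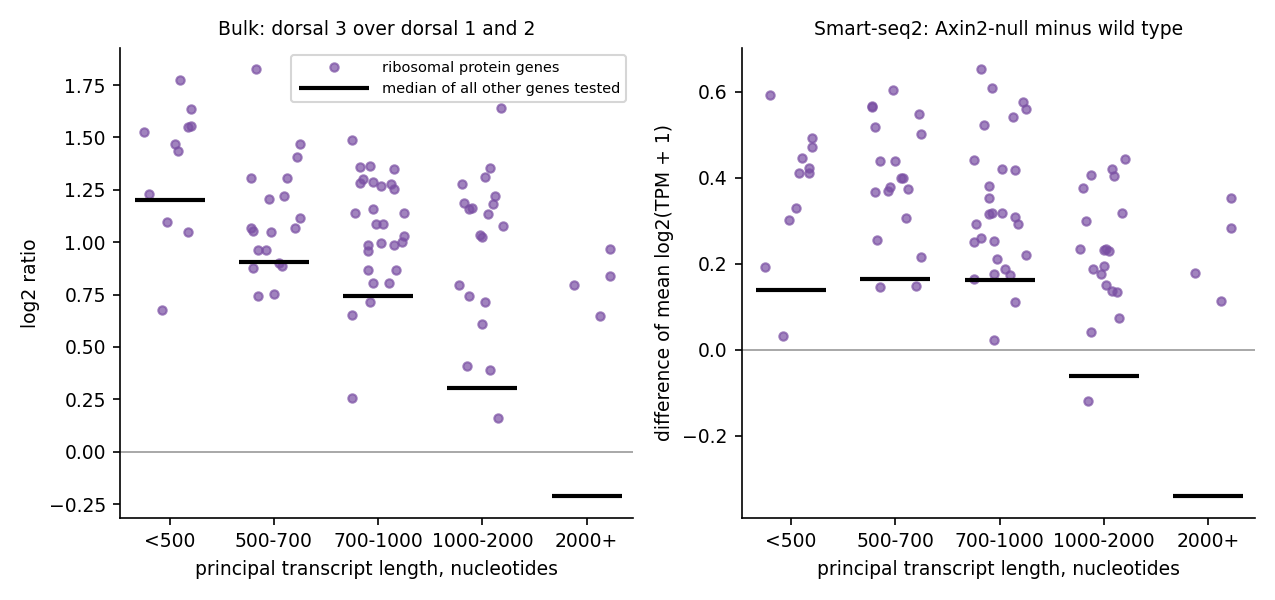
Log2 ratio of dorsal library 3 to the mean of dorsal libraries 1 and 2 in bulk (left) and difference of mean log2(TPM + 1), Axin2-null minus wild type (right), by length of the principal transcript in nucleotides. Purple points are ribosomal protein genes, spread sideways for legibility, and black bars are medians of all other genes tested; the bars fall with length in bulk, from 1.2 to -0.21, and in Smart-seq2 lie between 0.14 and 0.17 under 1000 nucleotides and at -0.34 from 2000 on.

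Genes that work with the ribosome gave the following counts in bulk. Over all genes, 7.14% were higher in dorsal and 9.54% lower with all libraries, and 9.68% and 12.4% without dorsal library 3. Of 78 mitochondrial ribosomal protein genes, none was higher and 1 lower in dorsal with all libraries, and none was higher and 24 lower without dorsal library 3. That is to be read against the 12.4% of all genes and the 35.4% to 54.8% of other genes in the classes under 1000 nucleotides that were lower in that comparison. The gene that passed with all libraries was Mrps6, at 54.3, 58.1 and 89.7 CPM in dorsal and 149, 124 and 192 CPM in ventral libraries (log2 fold change -1.2, adjusted p 0.0157, edgeR). Of 27 ribosome biogenesis genes, 3 were higher in dorsal and none lower, and without dorsal library 3 these numbers were 5 and 0. Utp20, of the complex that processes the small subunit rRNA, was at 16.1, 16.6 and 14.3 CPM in dorsal and 6.07, 7.35 and 4.28 CPM in ventral libraries, 1.41 higher on the log2 scale (adjusted p 0.02, edgeR). Fbl, the methyltransferase fibrillarin, was 0.97 higher (adjusted p 0.0435, edgeR).

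With all libraries, the initiation factor list and the elongation factor and TOP list had calls higher in dorsal alone. Their numbers were close to the share over all genes. Genes lower in dorsal were called in these lists only without dorsal library 3. The counts below stand beside 7.14% of all genes higher and 9.54% lower with all libraries. Without dorsal library 3 those shares were 9.68% and 12.4%. Of 33 initiation factor genes 2 were higher in dorsal and none lower with all libraries, the scaffold gene Eif4g1 by 0.76 (adjusted p 0.0317) and Eif1ax by 0.59 (adjusted p 0.0416, both edgeR). Without dorsal library 3 there were 4 higher and 3 lower, against 9.68% and 12.4% of all genes, with Eif6, which keeps free large subunits from joining, at -0.73 (adjusted p 0.0196) and the helicase gene Eif4a2 at -0.67 (adjusted p 0.0113, both edgeR) on the lower side. Of 15 tested elongation factor and other TOP genes 1 was higher, Hnrnpa1 by 0.60 (adjusted p 0.0409, edgeR), and none was lower. Without dorsal library 3 that list had none higher and 4 lower, among them Eef1b2, a subunit of the exchange factor for the elongation factor eEF1A, at -0.76 (adjusted p 0.0087, edgeR). Of 22 mTOR pathway genes 3 were higher and none lower, among them the mTOR inhibitors Ddit4 by 1.70 (adjusted p 0.0193) and Sesn1 by 1.5 (adjusted p 0.0036, both edgeR). Without dorsal library 3 there were 4 higher and 1 lower, Rheb, which activates mTOR complex 1, at -0.48 (adjusted p 0.0253, edgeR). Fau, which encodes a ribosomal protein fused to a relative of ubiquitin and escaped the symbol rule, was lower without dorsal library 3, at -0.78 (adjusted p 0.0083, edgeR), and not with it. Of 37 tested pseudogenes with ribosomal protein names, 13 were lower in dorsal and none higher, and reads can be shared between them and their parents.

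In the Smart-seq2 libraries, ribosomal protein genes took a larger part of the RNA in Axin2-null than in wild-type cells. Their share of TPM (transcripts per 1000000) was 8.70% to 15.7% in null libraries with a median of 13.2%, against 7.59% to 13.2% in wild-type libraries with a median of 10.3%. Of the 13 null libraries 7 lay above every wild-type library and 11 above the wild-type median, and 3 of the 12 wild-type libraries lay below every null one. The groups overlapped between these. Those 3 wild-type libraries, at 7.59% to 8.60%, also stood apart in the 11 immediate-early and stress genes, which took 0.048% to 0.133% of their TPM and at most 0.0265% in the other 9 wild-type libraries. The null library with the lowest ribosomal protein share, 8.70%, had the highest share of these genes in its genotype, 0.0723%, with at most 0.0225% in the other 12. The mean was 12.9% ± 1.95 in null (SD, n = 13) and 10.1% ± 1.45 in wild type (SD, n = 12), a difference of 2.82 percentage points and a ratio of 1.28. Without the 3 wild-type libraries and the 1 null library that stood apart in this way, the difference was 2.53 points, 11 genes were higher in null by more than 0.5, 78 were above 0, and the median difference described below was 0.25, against -0.35 over all genes. Because the labels tie no library to an embryo, each genotype counts as 1 sample, no test was made, and the SDs describe these libraries. Axin2 itself, which the genotype labels concern, was at 0 to 22.4 TPM in null libraries with a mean of 6.17 TPM, against 4.32 to 35.9 TPM in wild-type libraries with a mean of 13.8 TPM, and reads from a part of the gene that the null allele keeps would count here.

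Both subunits shared the difference. The large subunit took 6.90% ± 0.989 of TPM in null (SD, n = 13) and 5.41% ± 0.764 in wild type (SD, n = 12). The small subunit took 6.01% ± 0.965 in null (SD, n = 13) and 4.68% ± 0.697 in wild type (SD, n = 12). Per gene, 82 of the 85 averaged 1 TPM or more, and 81 of these were at 1 TPM or more in all 25 libraries. The difference of mean log2(TPM + 1), null minus wild type, was above 0 for 81 of the 82, against a background of 34.1% of 13680 genes. Its median was 0.32 over ribosomal protein genes and -0.22 over all genes. In the null libraries 13 genes were higher by more than 0.5, against a background of 8.33%, and none was lower by more than 0.5, against 30.7%. No gene of the family differed by more than 1, against 1.39% of all genes higher and 8.14% lower.

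That background includes low genes, whereas ribosomal protein genes are among the most abundant. Of 1383 other genes averaging 100 TPM or more, 55.9% were above 0, with 7.59% higher by more than 0.5 and 6.80% lower. Their median was 0.06. Genes of the family also moved with each other more than such genes did, with a median pairwise correlation over the 25 libraries of 0.36 for 80 of them and 0.23 for the 1383 others, as a description with no test. Rpl19 followed the others most closely, with a median correlation of 0.55. Rpsa, a small subunit protein also known as the laminin receptor, and Rpl34 followed them least, at -0.04 and -0.003. The coefficient of variation over libraries had a median of 27.3% for the family and of 90.7% for all genes averaging 1 TPM or more. The latter include low genes, so these medians are not matched for level.

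**Figure D4:**
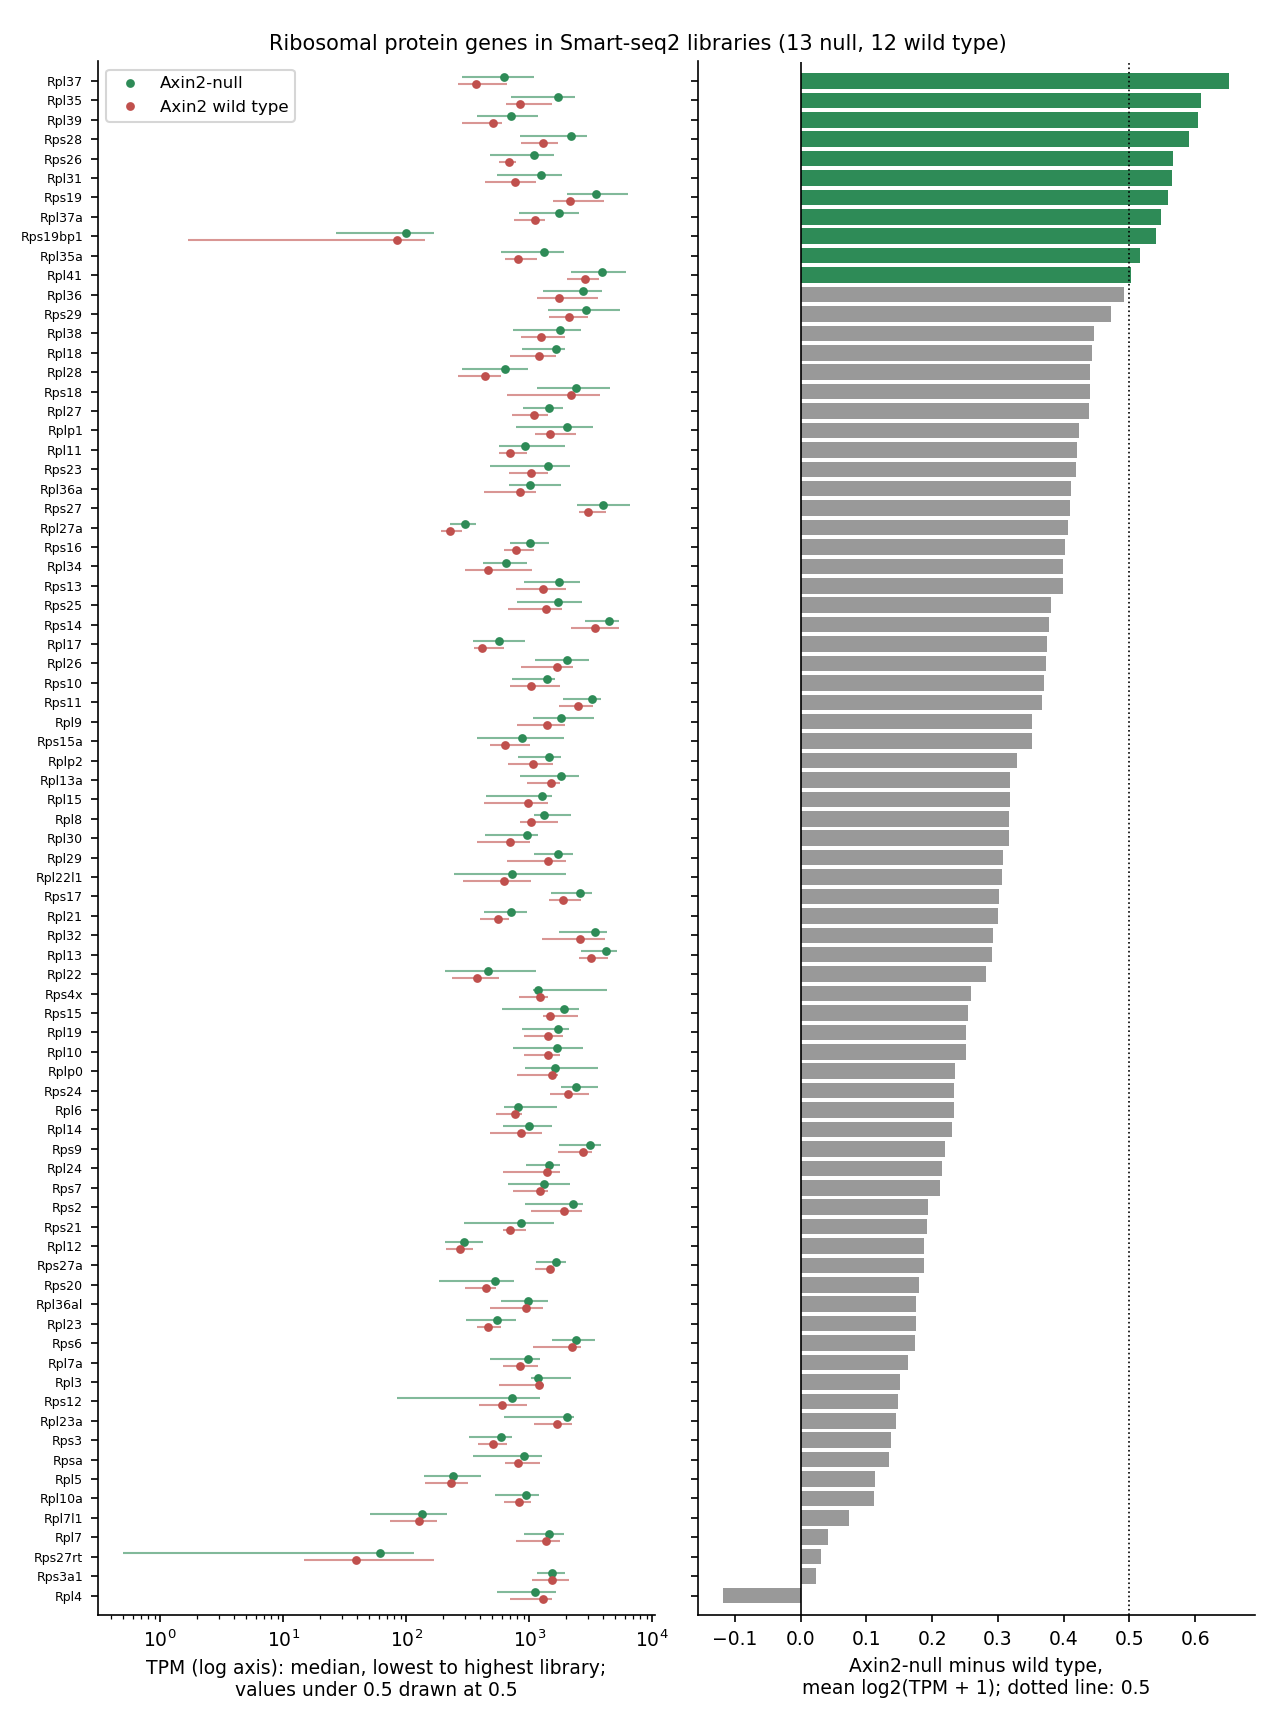
TPM of 79 ribosomal protein genes in 13 Axin2-null and 12 wild-type Smart-seq2 libraries (left, log axis; points are medians and lines run from the lowest to the highest library) and difference of mean log2(TPM + 1), null minus wild type (right; dotted line at 0.5, green bars past it). All bars drawn but that of Rpl4, at -0.12, lie above 0, and 11 of those drawn pass 0.5, with Rpl37 highest at 0.65.

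Rpl37, a zinc finger protein of the large subunit, had the largest difference. It ranged from 285 to 1097 TPM in null libraries with a median of 620 TPM, against 262 to 665 TPM in wild-type libraries with a median of 369 TPM. The ranges overlapped, 11 of 13 null libraries lay above the wild-type median, and the difference was 0.65. Rpl35, which sits beside the exit of the peptide tunnel, ranged from 707 to 2357 TPM in null with a median of 1707 TPM, and from 650 to 1532 TPM in wild type with a median of 844 TPM. Its difference was 0.61, with the same number of null libraries above the wild-type median.

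The other genes of this kind had similar ratios, apart from Rps19bp1. Rpl39, at the wall of the peptide tunnel, averaged 749 ± 244 TPM in null and 481 ± 108 TPM in wild type (SD, n = 13 and 12), a ratio of 1.56. Rps28 averaged 1990 ± 557 TPM in null and 1284 ± 240 TPM in wild type, a ratio of 1.55. Rps26, whose wild-type libraries were closely grouped, averaged 1071 ± 376 TPM in null and 680 ± 67.2 TPM in wild type, a ratio of 1.57. Rps19, the gene most often mutated in human Diamond-Blackfan anaemia, averaged 3657 ± 1411 TPM in null and 2428 ± 796 TPM in wild type, a ratio of 1.51. Rpl31 averaged 1193 ± 349 TPM in null and 801 ± 227 TPM in wild type, a ratio of 1.49. Rpl37a, Rpl35a and Rpl41 were also among the 13, at 0.55, 0.52 and 0.50. Rps19bp1 was among them at 0.54, but its ratio of means was 1.19. It averaged 96.7 ± 36.2 TPM in null and 81.3 ± 43.7 TPM in wild type, with a lowest wild-type library at 1.69 TPM. Rpl36, at 0.49, lay just under the cutoff.

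At the other end Rpl4 was the gene below 0. It ranged from 551 to 1655 TPM in null libraries with a median of 1122 TPM, against 703 to 1529 TPM in wild-type libraries with a median of 1287 TPM, and 6 of 13 null libraries lay above the wild-type median. Rps3a1, whose protein lies at the mRNA exit, averaged 1561 ± 261 TPM in null and 1541 ± 291 TPM in wild type, with a difference of 0.02. Rpl7 averaged 1373 ± 277 TPM in null and 1338 ± 284 TPM in wild type, with a difference of 0.04. These 3 genes showed a difference well within the spread of either genotype. Rpl7l1, Rpl5, Rpl10a and Rpsa lay at 0.07, 0.11, 0.11 and 0.13. Of the most abundant genes, Rps27 averaged 4517 ± 1395 TPM in null and 3300 ± 616 TPM in wild type, Rps14 and Rpl13 had differences of 0.38 and 0.29, and Rpl41 lay at 0.50.

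Here, too, length and difference moved together, with a Spearman correlation of -0.38 over 82 ribosomal protein genes and -0.31 over 13590 other genes. All 13 genes past 0.5 had a principal transcript under 1000 nucleotides. They were 1 of 11 under 500 nucleotides, 6 of 19 from 500 to 700 and 6 of 28 from 700 to 1000. Of other genes in these classes, 24.3%, 21.8% and 16.2% were higher by more than 0.5. The 13 are to be read against these shares as well as the 8.33% of all genes. For 28 ribosomal protein genes from 700 to 1000 nucleotides the median difference was 0.31, and for 790 other genes of that length 0.16. For 20 and 2995 genes from 1000 to 2000 nucleotides, the medians were 0.23 in the family and -0.06 outside it. From 2000 nucleotides on, 4 ribosomal protein genes had a median of 0.23 and 8658 other genes of -0.34. The family stood above the median of other genes in each class, with no test of that difference. The last class is uncertain, because annotated lengths, such as 5130 nucleotides for Rps15a and 3706 for Rps20, need not be those of the mRNAs made here. Per gene, the Smart-seq2 difference and the ratio of dorsal library 3 to dorsal libraries 1 and 2 in bulk had a Spearman correlation of 0.43. The 2 measures share no sample but do share each gene's transcript length, and the part of length was not tested.

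The share of mitochondrially encoded genes also moved with the result. It was 0.384% to 5.71% of TPM in null libraries with a median of 1.84%, against 2.11% to 8.80% in wild-type libraries with a median of 3.40%. Over the 25 libraries the ribosomal protein share and the mitochondrial share had a Spearman correlation of -0.83, over the 13 null libraries -0.43, and over the 12 wild-type libraries -0.76, as descriptions of parts of 1 total. With mitochondrially encoded genes taken out of the total, the null-minus-wild-type difference in share was 2.69 percentage points. Without the 1 null and 2 wild-type libraries above 5% mitochondrial TPM it was 2.77 points, and 14 genes were past 0.5. The number of genes detected at 1 TPM or more had a Spearman correlation of 0.07 with the ribosomal protein share over 25 libraries. Within the genotypes it was 0.40 over the 13 null and 0.45 over the 12 wild-type libraries.

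**Figure D5:**
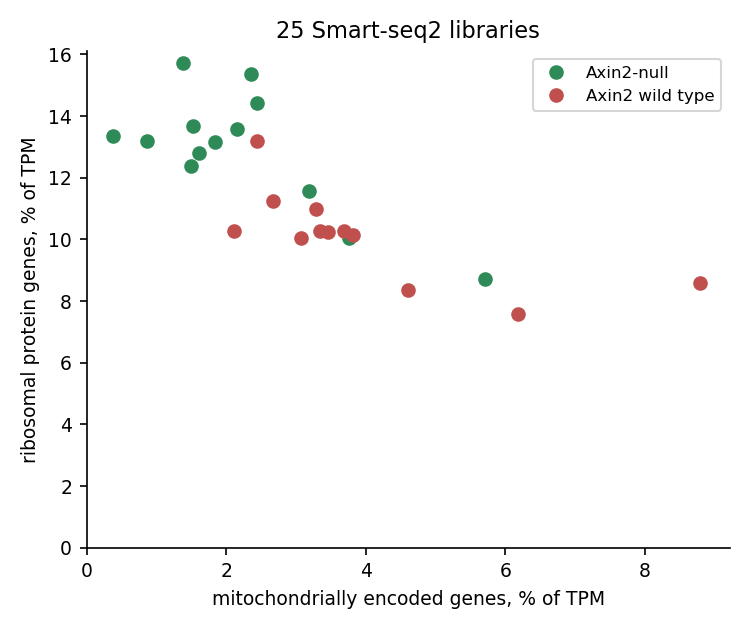
Share of TPM taken by ribosomal protein genes against the share taken by mitochondrially encoded genes, both in percent, for 13 Axin2-null and 12 wild-type Smart-seq2 libraries (points). Libraries with a high mitochondrial share had a low ribosomal protein share, and the null points lie mostly to the upper left, between 0.384% and 5.71% mitochondrial.

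The 7 markers of red blood cell precursors summed to 2570 to 43531 TPM in null and 978 to 31000 TPM in wild-type libraries, so blood RNA was present in both genotypes. Taking these genes out of the total gave a difference in share of 2.91 percentage points and 13 genes past 0.5. The 13 intestinal markers summed to at most 3.27 TPM in a null and 13.5 TPM in a wild-type library. Neural progenitor markers, 10 of 10 of them present, summed to 1378 to 3228 TPM in null and 1032 to 2966 TPM in wild-type libraries. The 7 endothelial markers summed to 23.8 to 106 TPM in null, with a median of 46.8 TPM. In wild type they summed to 19.3 to 188 TPM, with a median of 93.0 TPM. Median sums were 118 and 172 TPM for 7 mesenchyme markers and 870 and 858 TPM for 10 neuron markers, null first. The part of these cells in the family's difference was not tested. The 8 cortical markers, with Emx1, Emx2 and Lhx2 among them, summed to 286 to 560 TPM in null and 360 to 735 TPM in wild type. Of these 8, 7 averaged 1 TPM or more in each genotype. Wnt2b was at 0 in every null library, unlike the other 7, and its level was not compared between genotypes.

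Chromosome 11, the pair that MADM recombines, holds 7 of the genes, Rpl19, Rpl23, Rpl23a, Rpl26, Rpl27, Rpl38 and Rps27a. All 7 were higher in null, none by more than 0.5, with a median of 0.25. The 75 genes on other chromosomes had a median of 0.32, and the 1044 genes of chromosome 11 a median of -0.19. The family's difference was therefore present off the chromosome that holds Axin2. The 4 X-linked genes Rpl10, Rpl36a, Rpl39 and Rps4x had a median of 0.33.

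Paralogues were described pair by pair in the Smart-seq2 libraries. Rpl22 averaged 510 ± 242 TPM in null and 401 ± 131 TPM in wild type, and Rpl22l1 795 ± 393 TPM in null and 621 ± 217 TPM in wild type. The copy was thus listed above the parent in both genotypes. Rpl36a differed by 0.41 and Rpl36al by 0.18, with wide overlap in each. Rpl3 differed by 0.15, while Rpl3l was at 0 in all 25 libraries. Rpl10 differed by 0.25, and Rpl10l was at 0 in 13 of 13 null and 11 of 12 wild-type libraries. Rps4x had a null median of 1174 TPM and a wild-type median of 1215 TPM, with 1 null library at 4259 TPM. Its difference was 0.26 with that library and 0.12 without it. Its retrocopy Rps4l, annotated as a pseudogene and counted outside the family, differed by -0.004, and in bulk it was lower in dorsal by -0.84 (adjusted p 0.0425, edgeR).

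Rps27 and its copy Rps27rt show the limit of such pairs. The windows at their starts, chr3:90213619-90213678 and chr9:114982710-114982769, both on the minus strand, share a run of 29 of 60 bases, and capitals again mark the pyrimidine run.
Rps27: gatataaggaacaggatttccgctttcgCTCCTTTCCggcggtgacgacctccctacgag
Rps27rt: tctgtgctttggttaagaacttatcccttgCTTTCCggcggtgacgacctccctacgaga
Rps27rt averaged 61.9 ± 34.9 TPM in null and 53.4 ± 44.1 TPM in wild type, far under Rps27, with 1 null library at 0. In bulk it was at 8.83, 9.61 and 14.7 CPM in dorsal and 9.32, 18.3 and 3.73 CPM in ventral libraries, with no order between regions. Reads from the shared part cannot be assigned to either gene by sequence.

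The acidic stalk, which recruits elongation factors, comprises Rplp0, Rplp1 and Rplp2. In Smart-seq2 they differed by 0.24, 0.42 and 0.33. Rplp1 lay above the wild-type median in 12 of 13 null libraries, at 784 to 3302 TPM in null and 1113 to 2380 TPM in wild type. In bulk all 3 missed the threshold with all libraries, and Rplp1 alone of the 3 passed without dorsal library 3, at -0.83 (adjusted p 0.0058, edgeR).

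Rpl5, Rpl11, Rpl23 and Rps7 can bind Mdm2 and so stabilise p53 when ribosome assembly fails. Rpl11 averaged 989 ± 316 TPM in null and 720 ± 116 TPM in wild type, with 12 of 13 null libraries above the wild-type median and a difference of 0.42. Rpl5, its partner in the 5S particle, differed by 0.11, Rpl23 by 0.18 and Rps7 by 0.21. None of the 4 passed in bulk with all libraries. Rpl23 and Rps7 passed as lower in dorsal without dorsal library 3, at -0.46 and -0.56 (adjusted p 0.0406 and 0.0457, edgeR).

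Of 20 genes mutated in human Diamond-Blackfan anaemia, a failure of red cell production, all were higher in null, 6 by more than 0.5, with a median of 0.41 against 0.32 for the whole family. Past 0.5 were 13 of the 82 genes of the family and 8.33% of all genes. The 6 were Rpl35, Rps28, Rps26, Rpl31, Rps19 and Rpl35a. In bulk, none of the 20 passed with all libraries and 16 were lower in dorsal without dorsal library 3, with a median of -0.58, beside 48 of 83 in the family and 12.4% of all genes.

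Related lists were described in the same way in the Smart-seq2 libraries, where 8.33% of all genes were higher in null by more than 0.5 and 30.7% lower. Of 78 mitochondrial ribosomal protein genes, 7 were higher in null by more than 0.5 and none lower, with a median of 0.25. Of 27 ribosome biogenesis genes, none was higher and 9 were lower, with a median of -0.39, so that the lower ones were close to the share over all genes. Tsr1, an assembly factor of the small subunit, averaged 18.3 ± 14.2 TPM in null and 33.8 ± 17.6 TPM in wild type. Of 33 initiation factor genes none was higher and 4 were lower, among them Eif3a at 66.6 ± 30.5 TPM in null and 110 ± 31.8 TPM in wild type. Of 21 mTOR pathway genes 1 was higher and 7 were lower, also close to that share, with Tsc1, an inhibitor of mTOR complex 1, at -0.99. Elongation factor and other TOP genes gave 1 higher and 2 lower of 20. Fau and Rack1, ribosomal proteins by function, were higher in null by 0.34 and 0.17. The part of transcript length in these differences was not tested.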

How the data were processed

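Bulk RNA-seq (6 libraries) and Smart-seq2 (25 libraries) tables were used as deposited. Trimmomatic, featureCounts and STAR 2.7.0a are named, with GRCm38 and mm10, per the submitters' processing notes, which give no role or order. The deposited bulk table is named TPM, but its columns hold estimated counts, which were rounded to whole numbers. Dorsal libraries held 20622702, 20549847 and 17604166 counts, and ventral libraries 20838002, 19095390 and 17769770. The deposited Smart-seq2 table holds TPM, which keeps no depth. Its columns name a genotype, not a numbered sample.

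Bulk counts of genes averaging 1 CPM or more were tested with edgeR 4.0.16 (TMM scaling, quasi-likelihood fit, Benjamini-Hochberg adjustment over all genes, threshold 0.05) in R 4.3.3, in place of the planned limma test on log2(TPM + 1), which the estimated counts made unsuitable. CPM values are after TMM scaling. The labels do not tie libraries to embryos, so the p-values cover library-to-library spread alone, and that spread may be technical. Libraries of a region differed by a chi-square per gene of at least 8.53, so each was counted. Same-numbered dorsal and ventral libraries had deviations correlated at 0.0992, 0.148 and 0.165, and the numbers were not taken to pair them. The test was checked on simulated counts.

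Smart-seq2 genes averaging 1 TPM or more were described by the difference of mean log2(TPM + 1), which understates the change of low genes, with a cutoff of 0.5. GENCODE M21 (GRCm38) gave coordinates and transcript lengths, lengths being the median over principal transcripts. Named in the text are, in bulk, the 5 members highest per length, those with an unadjusted p under 0.05, 6 per direction by fold, and the paralogue, stalk and Mdm2 lists; in Smart-seq2, the 5 highest by TPM, 8 per direction by difference and the same lists; and 2 or fewer members of each related list per direction. Other genes are named because their values, order or length class stood out, after the values were seen. A few genes within this rule are left out of the text and of gene-by-gene plots, while totals and counts of the family include them. The ribosomal protein genes and all lists were chosen with earlier results of these data known. Alternatives covered scaling, filters, pseudocounts, other tests (DESeq2 1.42.0, limma 3.58.1), a replicate block and leaving out each library.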

Additional observations from a re-analysis of the deposited data

How the results depend on the processing

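With dorsal library 3 or another bulk library left out, the number of ribosomal protein genes lower in dorsal ran from 0 to 48, the median log2 fold change from -0.51 to 0.14 and the dorsal-minus-ventral share from -0.48 to 0.30 percentage points. No gene was higher in dorsal under any of these. The count lower in dorsal, 1 with all libraries, was 0 with a minimum of 5 CPM and 0 with replicate number as a block, where Rpl10l had a log2 fold change of -5.94 and an adjusted p of 0.0903 (edgeR), and it was 0 without dorsal library 1 or 2 or ventral library 1 or 2. Dorsal library 2 deviated most with ventral library 1, at a correlation of 0.187, not with its own number. Values near 0 changed sign: with library totals as the scaling, Rpl23 was 0.010 and Rpl36a 0.020, with limma on log2(CPM + 1), Rpl7 was -0.019, Rps14 -0.035 and Rps4x -0.0044, and with the replicate block, Rpl7 was -0.021, Rps14 -0.041 and Rps4x -0.012. The cause was not tested. Of 31 bulk genes named by rule, 17 were past the threshold without dorsal library 3 and 19 changed sign with some library left out. The log2 fold changes of these 19 ran, with 1 library left out, from -0.25 to 0.58 for Rpl10a, -0.31 to 0.27 for Rpl11, -0.31 to 0.36 for Rpl13, -0.28 to 0.76 for Rpl13a, -0.46 to 0.012 for Rpl22, -0.46 to 0.14 for Rpl23, -0.66 to 0.22 for Rpl36a, -0.75 to 0.017 for Rpl36al, -0.78 to 0.096 for Rpl37a, -0.26 to 0.15 for Rpl7, -0.12 to 0.34 for Rplp0, -0.83 to 0.15 for Rplp1, -0.47 to 0.44 for Rplp2, -0.43 to 0.30 for Rps14, -0.35 to 0.75 for Rps27rt, -0.85 to 0.21 for Rps29, -0.43 to 0.36 for Rps4x, -0.56 to 0.072 for Rps7 and -0.14 to 0.60 for Rpsa. In Smart-seq2 the 13 genes higher in null by more than 0.5 became 24 with median-of-ratios scaling and 0 with a cutoff of 1, and ran from 9 to 16 when 1 library was left out. The median difference ran from 0.28 to 0.38 and the difference in share from 2.59 to 3.17 percentage points in the same way. The alternatives on mitochondrial share, on immediate-early and stress genes and on blood genes were chosen after seeing the data. TPM keeps no depth, so counting error in Smart-seq2 is unknown.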
